A study of Homo sapiens with 6 samples.

Results

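Both arms of the human MIR31 hairpin, hsa-miR-31-5p and hsa-miR-31-3p, took a lower place among the microRNAs (miRNAs) precipitated by an antibody against N7-methylguanosine (m7G) than among those of the input RNA. These 2 rows were chosen by name, as a miRNA long studied in lung cancer, from the 2588 mature miRNAs in the count tables. The cells were A549, a line derived from a human lung adenocarcinoma, in which METTL1, the methyltransferase that places m7G in tRNA, had been knocked down by a doxycycline-inducible short hairpin RNA. All libraries came from knockdown cells 5 days after doxycycline at 200 ng/ml. The total RNA group had 3 libraries and the group precipitated with the m7G antibody (m7G-RIP) had 3. By the paper's protocol for precipitation, RNA was decapped and heat-denatured, and an input aliquot was saved before the antibody was added. The total RNA libraries are labelled as input in the counts but not in their titles. The titles and cell line labels of both groups name A549, while the culture text of the m7G-RIP group describes medium for the intestinal line Caco-2. Libraries with METTL1 intact or with a control antibody were not analysed here, so the comparison sets antibody against input within knockdown cells and cannot give the effect of METTL1.

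A miRNA is cut from a hairpin precursor by Drosha and then Dicer, which leaves a short duplex of a 5p and a 3p arm. Usually a single arm is kept by Argonaute as the guide and the other, the passenger, is degraded. The guide finds messenger RNAs through its seed, the bases near its 5′ end. miR-31-5p is the guide of MIR31 in most tissues. It is known in lung cancer as a promoter of growth that represses the tumour suppressors LATS2 and PPP2R2A, and in breast cancer as a suppressor of metastasis that represses RHOA and ITGA5. MIR31 is expressed from the long non-coding RNA gene MIR31HG.

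The sequences are shown so that the guide arm can be seen within its precursor and beside the miRNAs that the study uses as carrying m7G (let-7e-5p) and as lacking it (miR-148a-3p). They are from RefSeq (GRCh38.p14). Capitals mark the seed, bases 2 to 8, in the mature miRNAs, and the whole 5p arm in the hairpin.
miR-31-5p: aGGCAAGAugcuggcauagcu
let-7e-5p: uGAGGUAGgagguuguauaguu
miR-148a-3p: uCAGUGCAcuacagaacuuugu
MIR31 hairpin: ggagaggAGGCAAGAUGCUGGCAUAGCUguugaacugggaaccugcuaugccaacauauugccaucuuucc

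The hairpin of 71 bases lies on chromosome 9 at 21512115 to 21512185 on the minus strand (GRCh38). The 5p arm of 21 bases lies at 21512158 to 21512178 and takes bases 8 to 28 of the hairpin. In GENCODE release 44 the hairpin is spanned by 21 of the 27 transcripts of MIR31HG on the same strand and overlaps no exon of it, so it is intronic. The seed of miR-31-5p was held by 1 of the 2370 mature miRNA names with a RefSeq sequence, miR-31-5p itself. Bases 2 to 7 were shared with 1 other name, miR-6809-5p, which had 0 counts in all 6 libraries. A sequence could be matched to 2281 of the 2588 miRNAs in the count tables, and the others were not searched.

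The total RNA libraries held from 9155690 to 10753443 counts and the m7G-RIP libraries from 2649238 to 3106556. Levels are given in CPM, counts brought to a fixed library size, after scaling by the trimmed mean of M values (TMM), which gives each library an effective size so that the bulk of miRNAs is level between libraries. The sums over the marker miRNAs of intestinal epithelium (miR-192-5p, miR-194-5p and miR-215-5p) were from 21592 to 22196 CPM in total RNA and from 2907 to 3181 CPM in m7G-RIP. Nearly all of each sum was miR-192-5p, whose group means were 21337 and 2921 CPM. The other arm of miR-194, miR-194-3p, was not on this list and went the opposite way, with means of 374 and 1203 CPM. The identity of the cell line was not tested from these levels. Of 5 blood markers, 4 were at 0 in every library and miR-451a reached 5 counts in 1 library. Muscle markers stood out in m7G-RIP replicate 2, with 260 counts of miR-1-3p and 114 of miR-133a-3p, while the third muscle marker, miR-206, was at 0 in every library. The endothelial marker miR-126-3p had from 431 to 450 CPM in total RNA and from 223 to 304 CPM in m7G-RIP, and the liver marker miR-122-5p was at 0 throughout. The sum of 3 epithelial markers was from 80.1 to 94.3 CPM in total RNA and from 71.6 to 116 CPM in m7G-RIP, nearly all of it miR-200c-3p, with at most 6 counts of miR-141-3p and 8 of miR-205-5p. That last list left out miR-200a and miR-200b. The mean of miR-200b-3p was 426 CPM in the input and 145 CPM in the precipitate. For miR-200a-5p the means were 55.9 and 25.9 CPM, and for miR-200a-3p 29.3 and 3.88 CPM. The scarcer miR-200b-5p rose, from 6.66 to 14.4 CPM. The part of any of these in the results was not tested. Nothing in the labels says that replicates came from separate cultures, so p-values measure the spread between these libraries, which may be technical.

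miR-31-5p was a well-expressed guide in total RNA. It had 11997, 11958 and 9712 counts in total RNA replicates 1, 2 and 3, and 1841, 2393 and 2579 counts in those of m7G-RIP. Its TMM-scaled level was 1354, 1421 and 1277 CPM in total RNA and 542, 751 and 690 CPM in m7G-RIP. The lowest total RNA library stood well above the highest m7G-RIP library, so the groups did not overlap. Of all 2588 miRNAs, miR-31-5p ranked 49 by mean level in total RNA and 61 in m7G-RIP. Counting error was from 0.913% to 1.01% of the value in total RNA and from 1.97% to 2.33% in m7G-RIP, below the coefficients of variation between replicates of 5.35% and 16.3%, so spread between libraries and not depth set the precision of this arm.

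miR-31-3p, the passenger, was far scarcer. It had 411, 427 and 219 counts in total RNA and 49, 43 and 89 counts in m7G-RIP. Its TMM-scaled level was 46.4, 50.8 and 28.8 CPM in total RNA and 14.4, 13.5 and 23.8 CPM in m7G-RIP. On this scale the groups did not overlap, though total RNA replicate 3 and m7G-RIP replicate 3 lay close to each other. In plain CPM, counts divided by the library total alone, they did overlap: total RNA replicate 3 had 23.9 CPM and m7G-RIP replicate 3 had 28.6 CPM. It ranked 223 by mean level in total RNA and 282 in m7G-RIP. Counting error reached 15.2% of the value in m7G-RIP, and the coefficients of variation were 27.7% in total RNA and 33.1% in m7G-RIP.

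**Figure D1:**
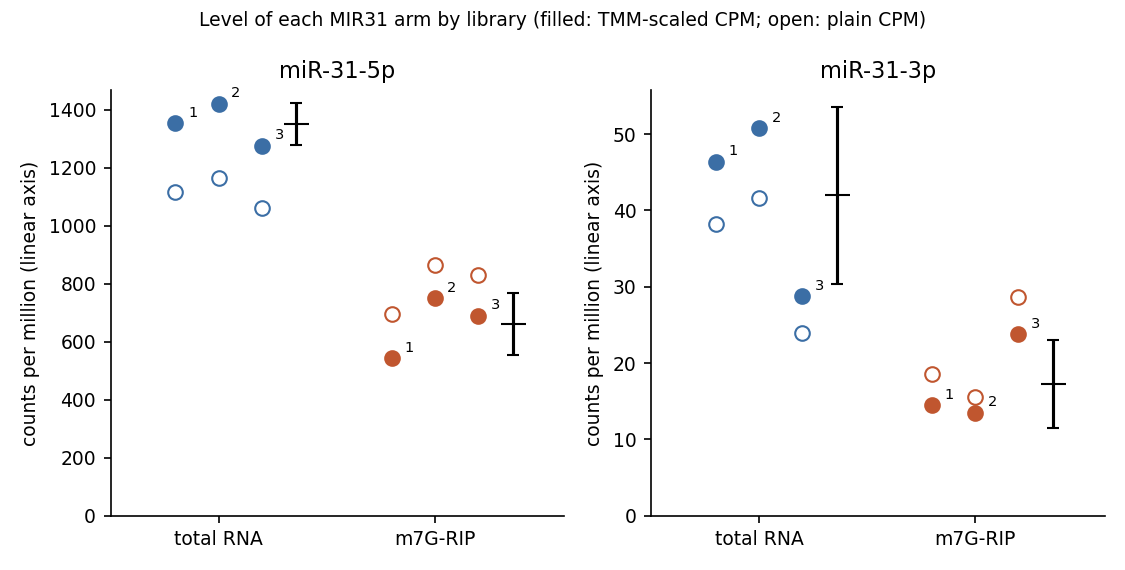
Level of miR-31-5p (left) and miR-31-3p (right) in each library, in CPM on a linear axis from 0, filled after TMM scaling and open as plain CPM, with replicate numbers and, in black, the mean and SD of the TMM-scaled values (n = 3). For miR-31-5p total RNA lies above m7G-RIP on both scales, while for miR-31-3p total RNA replicate 3 (28.8 CPM) and m7G-RIP replicate 3 (23.8 CPM) are near each other and change order in plain CPM.

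Setting m7G-RIP against total RNA asked whether either arm was among the miRNAs that the antibody enriches over input. Both were depleted. The mean level of miR-31-5p was 1351 ± 72.2 CPM over the input libraries and 661 ± 107 CPM over those of the precipitate (SD, n = 3). It was thus 2.04-fold lower, with a fitted log2 ratio of -1.03 ± 0.14 (SE; adjusted p 0.00026, quasi-likelihood test of edgeR). The mean level of miR-31-3p was 42.0 ± 11.6 CPM over the input libraries and 17.3 ± 5.71 CPM over those of the precipitate (SD, n = 3). It was 2.43-fold lower, with a fitted log2 ratio of -1.28 ± 0.35 (SE; adjusted p 0.0135, same test), and -1.16 without total RNA replicate 2, where the call was lost (edgeR adjusted p 0.0504). Both ratios compare precipitate with input and are relative to the other miRNAs of a library, since the amount of RNA recovered is not known. The groups have separate count tables and differ in their culture text. A difference between these sets of libraries other than the antibody would enter the ratios and was not tested.

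Depletion was common in this comparison. Of the 620 miRNAs tested, 181 were depleted, which is 29.2%, and 146 were enriched, which is 23.5%. Every m7G-RIP library lay below every total RNA library for 36.5% of the miRNAs tested, both MIR31 arms among them. Among the miRNAs called depleted, the depletion of the arms was moderate. The median log2 ratio of the 181 depleted miRNAs was -2.31, and 159 of them had a lower ratio than miR-31-5p. For miR-31-3p, 146 of them had a lower ratio. These miRNAs were picked by the threshold and include scarce ones with extreme ratios. An example is miR-105-3p at -8.18, with 6.15 CPM in total RNA and 0 in m7G-RIP. The arms were not compared with miRNAs of like level alone. The median over all 620 tested was -0.074.

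The size of the ratio rested on the scaling, and for miR-31-3p the call did too. With library size alone, the median log2 ratio of all miRNAs tested was 0.55 higher and 216 miRNAs were enriched against 141 depleted, in place of 146 against 181. The log2 ratio of miR-31-5p was then -0.48 (edgeR adjusted p 0.00635) and that of miR-31-3p was -0.72 (edgeR adjusted p 0.106). Relative to the median of all tested, the change of miR-31-5p was -0.96 with either scaling. That of miR-31-3p was -1.21 with TMM and -1.20 with library size alone. Scaling moves all miRNAs of a library together, so this likeness follows from the method and is no check of the ratio. Over all alternatives the value for miR-31-5p ran from -1.32 (without total RNA replicate 3) to -0.52 (no filter). For miR-31-3p it ran from -1.73 to -0.77 in the same fits. As a plain share of all counts, miR-31-5p took 0.111% ± 0.00524 of total RNA and 0.0797% ± 0.00902 of m7G-RIP (SD, n = 3; exact permutation p = 0.1, two-sided, the smallest that 3 against 3 libraries can give). miR-31-3p took 0.00346% ± 0.000939 and 0.00209% ± 0.000687 (SD, n = 3; exact permutation p = 0.2).

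At the mean share of total RNA, the m7G-RIP libraries would have held 2951, 3078 and 3461 counts of miR-31-5p. They held 62.4%, 77.7% and 74.5% of that in replicates 1, 2 and 3. The corresponding values for miR-31-3p were 53.5%, 45.0% and 82.8%. All 6 of these values were under the mean share in total RNA, with replicate 1 lowest for the 5p arm and replicate 2 lowest for the 3p arm. Single libraries did overlap for miR-31-3p, which took 0.00286% of m7G-RIP replicate 3 and 0.00239% of total RNA replicate 3.

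**Figure D2:**
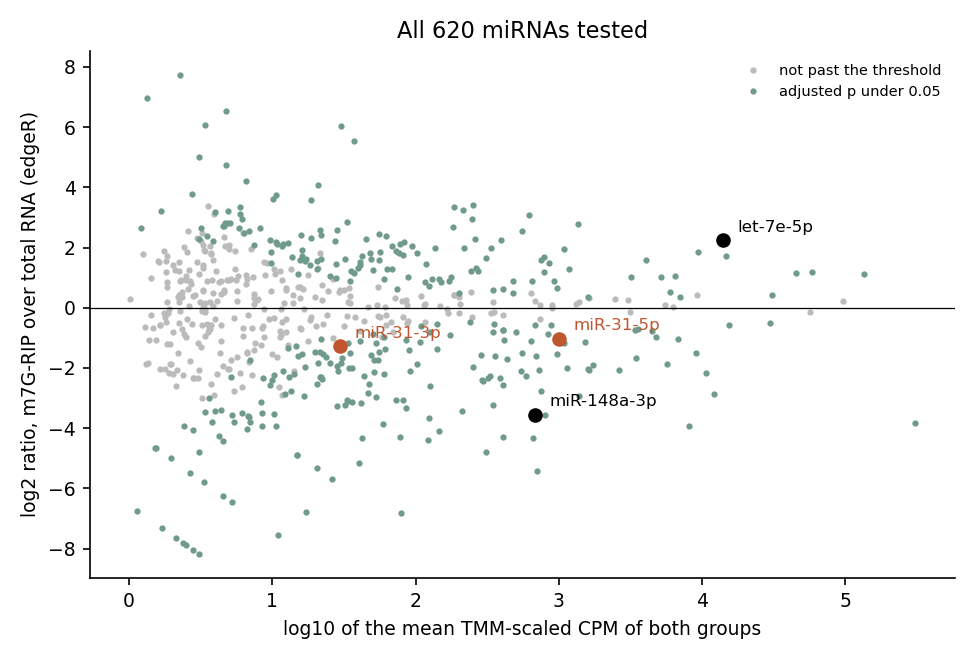
Log2 ratio of m7G-RIP over total RNA (edgeR, vertical axis) against the log10 of the mean TMM-scaled CPM of both groups (horizontal axis) for the 620 miRNAs tested, green where the adjusted p was under 0.05. Both MIR31 arms (orange), at -1.03 and -1.28, lie below 0 and between let-7e-5p at 2.24 and miR-148a-3p at -3.55 (black). The quartiles of all miRNAs tested, -1.74 and 1.21, lie between these too.

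Ratios of counts within a library need no scaling between libraries. They placed miR-31-5p between the miRNAs that the study uses as carrying and as lacking m7G. The study assigned m7G to let-7e-5p in A549 cells without the knockdown, while all libraries here are from knockdown cells. It reports that m7G on let-7 primary transcripts fell upon knockdown. miR-148a-3p and miR-31-5p had nearly equal counts in total RNA, with 0.932, 0.906 and 0.961 counts of miR-148a-3p for each count of miR-31-5p. In m7G-RIP there were 0.175, 0.170 and 0.145. The ratio fell 5.72-fold, so miR-148a-3p lost more in the precipitate than miR-31-5p did. For let-7e-5p, a tumour-suppressing miRNA, the same ratio was 3.27, 3.29 and 4.34 in total RNA and 37.0, 29.3 and 39.3 in m7G-RIP, a 9.70-fold rise. For miR-21-5p, an oncogenic miRNA and the most abundant of total RNA, it was 436, 421 and 420 in total RNA and 69.5, 57.8 and 59.1 in m7G-RIP, a 6.87-fold fall. The groups did not overlap for any of these 3 ratios. Each ratio had an exact two-sided permutation p of 0.1 on the log2 scale and 0.1 after adjustment over the 3. That is the smallest p that 3 against 3 can give. The references had large log2 ratios of their own, at -3.55 for miR-148a-3p, 2.24 for let-7e-5p and -3.82 for miR-21-5p. The gap and its p thus followed from their choice, and the ratios are given as a description.

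Whether the antibody recovered the 2 arms unequally was asked from the arm ratio, the 5p count divided by the 3p count in the same library. The ratio was 29.2, 28.0 and 44.3 in total RNA replicates 1, 2 and 3, and 37.6, 55.7 and 29.0 in those of m7G-RIP. The groups overlapped, and the spread within each was as wide as between them. The 5p arm gave from 96.6% to 98.2% of the MIR31 counts of a library, and miR-31-3p the remaining 3.31%, 3.45% and 2.21% in total RNA and 2.59%, 1.77% and 3.34% in m7G-RIP. The mean was 2.99% ± 0.682 in total RNA and 2.56% ± 0.786 in m7G-RIP (SD, n = 3; exact two-sided permutation p = 0.6). The 95% Wilson interval of total RNA replicate 3 (1.93% to 2.51%) did not reach that of replicate 1 (3.01% to 3.64%) or replicate 2 (3.14% to 3.78%), so libraries of one group were farther apart than counting error allows. Counts are PCR reads without molecular identifiers, and such intervals cover counting error only.

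**Figure D3:**
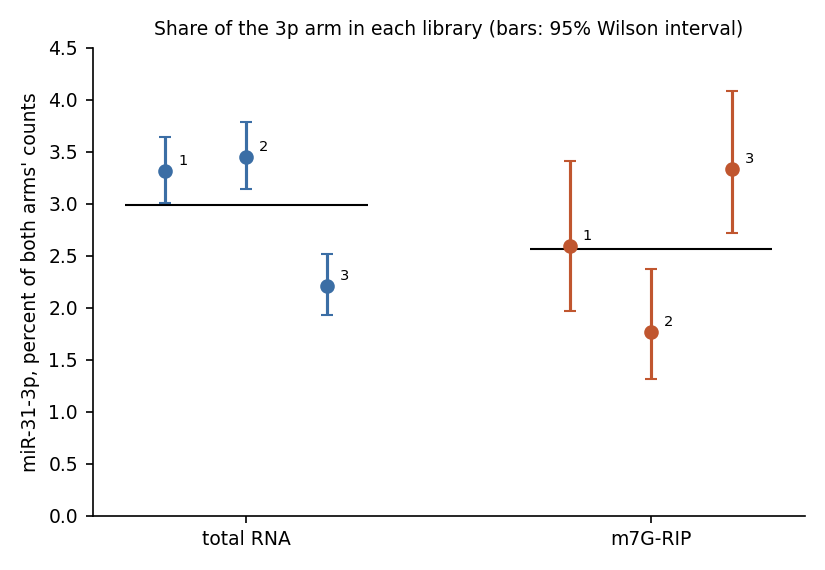
Share of miR-31-3p in the counts of both MIR31 arms, in percent, for each library with its replicate number. Bars are 95% Wilson intervals and black lines group means (2.99% in total RNA, 2.56% in m7G-RIP), and the libraries of both groups fall in the same range.

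In a fit over every hairpin with both arms tested, the log2 arm ratio of MIR31 was 5.05 ± 0.37 in total RNA and 5.28 ± 0.47 in m7G-RIP (SD, n = 3). The difference was 0.24 (SE 0.36, limma adjusted p 0.632), with a 95% confidence interval from -0.68 to 1.15. In linear terms the interval runs from 0.624-fold to 2.22-fold. Leaving out an m7G-RIP library gave differences of 0.27, -0.013 and 0.45 for replicates 1, 2 and 3, so the direction turned without replicate 2. Leaving out a total RNA library gave 0.15, 0.12 and 0.45 in the same order. No such fit passed the threshold.

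Many other hairpins did change their arm ratio. Of 139 hairpins with both arms tested, 54 had a changed ratio at an adjusted p under 0.05, which is 38.8%, with 32 moving toward the 5p arm in m7G-RIP (23.0%) and 22 toward the 3p arm (15.8%). The median size of the difference, without its sign, was 1.74 on the log2 scale, and 10 of the 139 hairpins had a smaller one than MIR31. Among the 68 hairpins with at least 10 counts of each arm in every library, 44 changed (64.7%), the median size was 1.38, and 6 had a smaller difference than MIR31. Next to MIR31 in the order of the differences were miR-221 (0.19) and miR-378a (0.19) below it, and miR-1307 (0.27) and miR-98 (0.32) above it. None of these 4 was past the threshold, and 3 of them turned direction when an m7G-RIP library was left out: miR-378a (-0.20) and miR-1307 (-0.40) without replicate 3, and miR-98 (-0.84) without replicate 2.

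**Figure D4:**
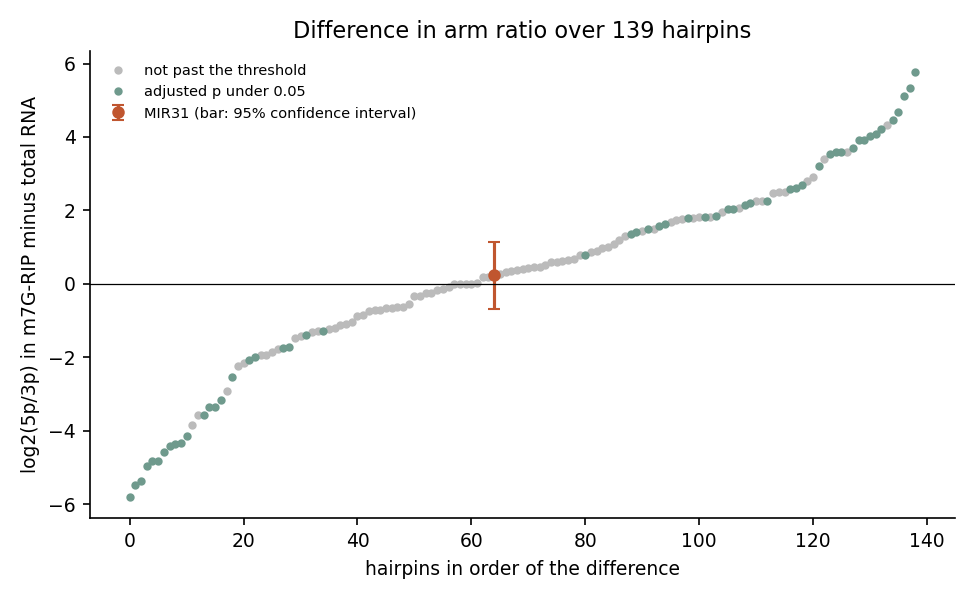
Difference in log2 arm ratio (5p over 3p) between m7G-RIP and total RNA for 139 hairpins in order of its value, green where the limma adjusted p was under 0.05. MIR31 (orange, 0.24 with its 95% confidence interval from -0.68 to 1.15) sits near 0 in a range from -5.79 to 5.77.

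Both arms went the same way in 39 of the 139 hairpins, with both depleted in 26, MIR31 among them, and both enriched in 13. In 17 hairpins the arms parted, one being enriched and the other depleted. In 29 hairpins neither arm was past the threshold. Among the 26 with both arms depleted, 5 had a changed arm ratio and 21, including MIR31, had none past the threshold.

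The miRNAs whose levels over the 6 libraries most resembled those of miR-31-5p were found by the distance between log2 CPM profiles, each centred on its own mean, among the 358 other miRNAs that no library held at under 10 counts. Such likeness fixes that the miRNAs it finds move as the arm does, so their ratios are given as a description. The nearest were miR-28-3p (distance 0.16), miR-185-5p (0.19), miR-23b-3p (0.21), miR-151a-3p (0.24) and miR-10b-5p (0.30). All 5 were depleted, with log2 ratios from -1.12 for miR-23b-3p and miR-28-3p to -0.98 for miR-10b-5p. Their mean levels in total RNA ran from 560 CPM for miR-185-5p to 9178 CPM for miR-151a-3p, on either side of the 1351 CPM of miR-31-5p. miR-10b-5p is known as a promoter of metastasis in breast cancer.

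For miR-31-3p the nearest profiles were farther off, at distances from 0.59 for miR-935 to 0.84 for miR-107. Between them came miR-548k (0.66), miR-23a-3p (0.80) and miR-30d-5p (0.83). All 5 were depleted, with log2 ratios from -1.54 for miR-548k to -0.82 for miR-107. The calls of miR-935, miR-548k and miR-107 were lost with library size alone, as was that of miR-31-3p. The arms of MIR31 were not each other's nearest profile. miR-31-5p was number 7 in the order for miR-31-3p, and miR-31-3p was number 48 in the order for miR-31-5p, at a distance of 0.88.

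Since m7G is a modified G, the base content of the arms was set beside the ratio. RefSeq held a mature sequence for 557 of the 620 miRNAs tested (89.8%), with miR-31-5p among them and without miR-31-3p. miR-31-5p has 7 G in 21 bases, or 33.3%, against a median of 27.8% over the 557. Its G content was above that of 64.1% of them, while its log2 ratio was above that of 34.0% of all miRNAs tested. Across the 557 miRNAs the log2 ratio had a Pearson r of 0.41 with percent G, -0.091 with percent C, -0.21 with percent A and -0.20 with percent U. These are correlations across miRNAs that share libraries and are not independent, so no p is given. The base percentages of a miRNA have a fixed sum, so the values for C, A and U are not separate from that for G. As seen in the sequence, miR-31-5p holds GG at 2 places and no GGG. GGG was held by 35.7% of the 557, whose median log2 ratio was 0.87 against -0.55 for those without it. GG was held by 74.9%, with medians of 0.15 and -0.58.

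Of the 557, 12 miRNAs lay within 1 percentage point of the G content of miR-31-5p, itself included. Of these, 3 were depleted and 2 enriched, near the 29.2% and 23.5% of all miRNAs tested, and their median log2 ratio was 0.23. In 122 hairpins with a sequence for both arms, 116 differed in percent G between arms, and in 81 of these the G-richer arm was also the one with the higher log2 ratio.

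miR-31-5p was last set beside other miRNAs that are known in lung cancer. Of 8 known as promoters of lung cancer, 7 were tested, with 5 depleted and 2 enriched and a median log2 ratio of -2.58. Over all miRNAs tested, 29.2% were depleted and 23.5% enriched. miR-21-5p was lowest at -3.82 and miR-182-5p highest at 1.07. Of 8 known as suppressors, 7 were tested, with 4 depleted, 1 enriched and 2 not past the threshold and a median of -0.82. miR-101-3p, which represses EZH2, was the lowest of those past the threshold at -4.33, and let-7a-5p, which represses RAS genes, the highest at 1.19. miR-145-5p was at 0 in every library. Of 8 linked to metastasis and migration, 4 were tested and 3 were depleted, with a median of -1.92 and calls from -2.28 for miR-9-5p to -0.98 for miR-10b-5p. miR-206, miR-373-3p and miR-103a-3p were at 0 in every library. A count of 0 need not mean that a miRNA was absent from the cells, since the counting of reads with several alignments is not given. Against these medians and the -0.074 of all miRNAs tested, the -1.03 of miR-31-5p lay above the median of the promoters and of the metastasis list and below that of the suppressors. No test was made of these lists, and nothing particular to them is read from the counts.

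**Figure D5:**
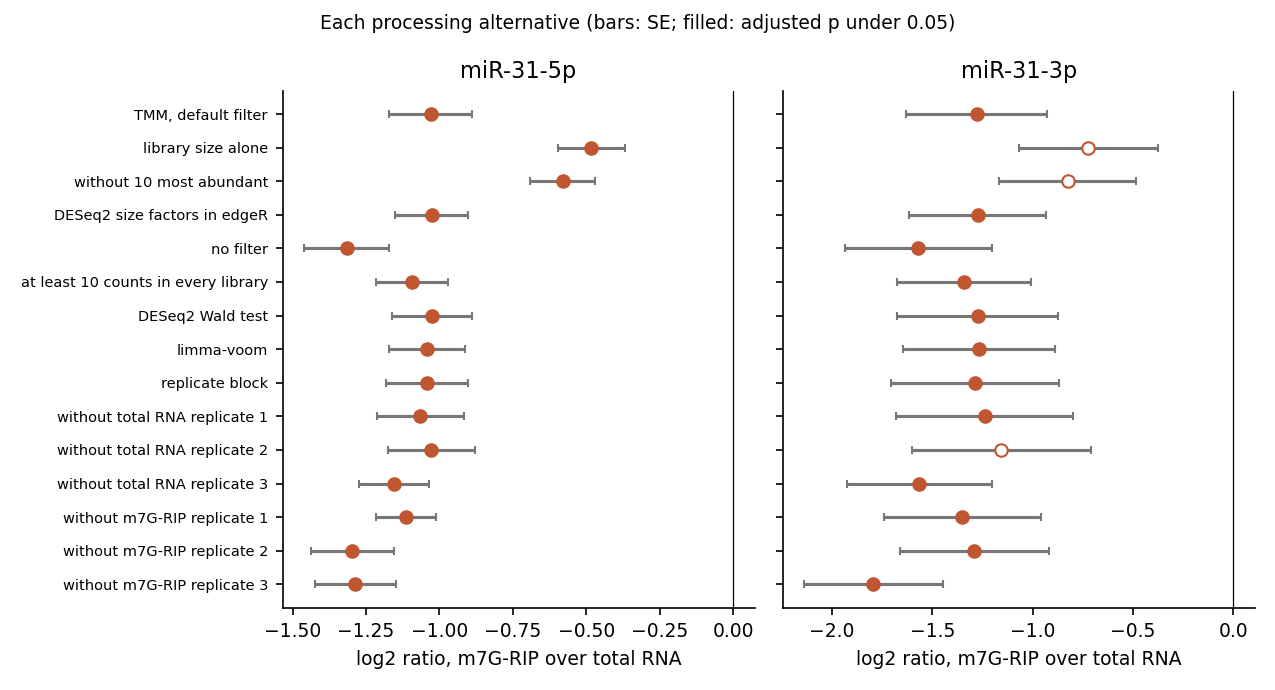
Log2 ratio of m7G-RIP over total RNA with its SE (horizontal axis) for miR-31-5p and miR-31-3p under each processing alternative, filled where the adjusted p was under 0.05. Every value is below 0, and library size alone gives the values nearest to 0 (-0.48 and -0.72), where the call of miR-31-3p is lost.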

How the data were processed

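Small RNA libraries (NEBNext, single-end) of 6 A549 samples were used. The authors deposited raw read counts per mature miRNA, 1 table per group. Per the methods, reads were trimmed with Trimmomatic, mapped end to end to GRCh38 with STAR and summarised with featureCounts on miRBase 22. The submitters' processing notes name Bowtie2 in place of STAR. How reads with several alignments were counted is not given in the sources used here.

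Groups and replicate numbers came from the sample titles. Counts were fitted over all miRNAs with edgeR 4.0.16 in R 4.3.3 (TMM, default expression filter by group, robust quasi-likelihood F test, no block), with Benjamini-Hochberg adjustment over the 620 tested and a threshold of 0.05. SE is the size of the log2 ratio divided by the square root of F. Arm ratios used log2 of counts plus 0.5 per arm in limma 3.58.1 (robust), adjusted over 139 hairpins paired by name. Profiles used log2 CPM with a prior count of 2. Single values used exact permutation tests (scipy 1.17.1). No library repeated another (chi-square over degrees of freedom from 22.2 to 112 for pairs within a group), and all were kept. The code was tested on simulated counts.

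The members, the lists and the tests were chosen with earlier results of these data known. Named miRNAs were the arms, seed relatives, the 5 nearest profiles per arm, and the 2 hairpins on each side of MIR31 in the order of arm ratio differences. Also named were let-7e-5p and miR-148a-3p, and the called extremes of each list and its members without counts. The ratios to miR-21-5p and the other miRNAs, miR-6809-5p, and the marker counts given were chosen after values were seen. Alternatives covered scaling, filter, tool (DESeq2 1.42.0, limma-voom, edgeR diffSpliceDGE), pseudocount, the replicate number as a block, and omission of each library in turn.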

Additional observations from a re-analysis of the deposited data

How the results depend on the processing

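miR-31-5p stayed depleted past the threshold in all 14 alternatives, with log2 ratios from -1.32 to -0.48, and miR-31-3p kept its direction in all 14 and its call in 11. The call of miR-31-3p was lost with library size alone (-0.72) and with library sizes that leave out the 10 top miRNAs (-0.82), which raise the median of all tested by 0.55 and 0.45, and without total RNA replicate 2 (-1.16, edgeR adjusted p 0.0504). The cause was not tested. Over its alternatives its adjusted p ran from 0.000141 to 0.106, and with a library left out its log2 ratio lay between -1.79 and -1.16. The arm ratio difference of MIR31 was not past the threshold in any of 10 alternatives. It lay between -0.013 and 0.45 when a library was left out. In such fits it ran from -0.20 to 0.70 for miR-378a, from -0.40 to 0.86 for miR-1307 and from -0.84 to 0.90 for miR-98, which was also -0.15 with 2 counts added to each arm. With 39 to 64 changed hairpins, that count stayed within 1.5 times the reported 54, as did those of enriched and depleted miRNAs. Of the 10 nearest profiles, 4 were shared when correlation replaced distance. In place of the 0.41 for percent G, percent C gave -0.091, percent A -0.21 and percent U -0.20. These are tied to percent G, since the base percentages of a miRNA have a fixed sum.

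Equal replicate numbers were not read as pairs, as the correlations of deviations were -0.0433, -0.101 and 0.0641, and 2 of 6 libraries correlated best with their own number. A pattern shared by number was seen for miR-133a-3p, which had counts in replicate 2 alone in both groups. With the replicate number as a block, the log2 ratios were -1.04 and -1.29 for the 5p and 3p arms (edgeR adjusted p 0.000339 and 0.0337), the arm ratio difference was 0.24 (limma adjusted p 0.691), 39 hairpins changed, and 122 miRNAs were enriched and 175 depleted. The paired share differences were -0.0317 and -0.00137 percentage points for the 5p and 3p arms and 0.424 points for the 5p percent of both arms. The 43 to 89 counts of miR-31-3p in m7G-RIP limit its ratio.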

Other observations

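Around MIR31 on the short arm of chromosome 9, 6 other miRNA genes lie within 10 Mb (GENCODE release 44, GRCh38), with 11 rows in the count tables. miR-4473, from a gene 1101 kb away and named here after its values were seen, had 874, 804 and 777 counts in total RNA and 76, 73 and 72 in m7G-RIP. It was depleted, as both MIR31 arms were, at -2.20 ± 0.21 on the log2 scale (SE; adjusted p 2.06e-05, edgeR). The other 5 genes, from MIR491 at 796 kb to MIR873 at 7377 kb, had at most 46 counts of any arm in a library, against at least 9712 counts of miR-31-5p in each total RNA library.

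The muscle miRNAs miR-1-3p and miR-133a-3p varied between m7G-RIP libraries far more than either MIR31 arm. miR-1-3p had 66, 260 and 2 counts in m7G-RIP replicates 1, 2 and 3, and 88, 79 and 69 counts in those of total RNA. miR-133a-3p had 0, 114 and 0 counts in m7G-RIP and 0, 20 and 0 in total RNA. miR-206, the third muscle marker, was at 0 in all 6 libraries.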
